A study of Homo sapiens with 24 samples.

Results

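The comparison set out here is 6 h of actinomycin D against 0 h in HepG2 cells that carry a hairpin against SETD2: 2 libraries at 6 h (shSETD2 6 h) and 2 at 0 h (shSETD2 0 h), chosen by their labels, out of 24 libraries in the series. HepG2 is a human hepatocellular carcinoma line. All cells of the series had taken up a lentiviral hairpin, had been selected with puromycin at 1 ug/mL and were kept as a stable line; the hairpin was directed at SETD2 (shSETD2), at METTL14 (shMETTL14) or was a non-specific control (shCtrl). The 6 h cells had received actinomycin D at 5 ug/mL, and the 0 h cells none. Libraries of the same line at 1 h and 3 h (2 each) give the course between, and the 6 h and 0 h libraries of shCtrl and shMETTL14 (2 in each group) serve for 2 comparisons of the 6 h change between lines. The labels name 1 hairpin line per target and do not say whether it is a clone, and the series' text calls the 2 libraries of a group biological replicates without saying how the cultures were kept apart, so the p-values rest on the spread between libraries, which may be technical.

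Actinomycin D binds DNA and stops RNA polymerases from moving, so that no new transcript replaces those being degraded. What is left of a messenger RNA after some hours then depends on how fast it is removed, a process that starts for most messengers with shortening of the poly(A) tail and goes on with decapping and exonucleases. Messengers of immediate early genes, feedback inhibitors of signalling and many transcription factors are known to be short-lived, often through AU-rich elements in the 3' untranslated region (3' UTR), while those of liver secreted proteins and of ribosomal proteins are known to be long-lived. SETD2 is the enzyme that trimethylates lysine 36 of histone H3 in transcribed genes; METTL14 is a subunit of the enzyme that writes N6-methyladenosine (m6A) on RNA. The comparison asks which transcripts of SETD2-depleted cells are lost and which outlast the rest once synthesis is stopped.

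Library totals in the shSETD2 line were 20.7 and 18.3 M counts at 6 h and 28.7 and 23.6 M counts at 0 h, and over its 8 libraries they ran between 18.3 and 31.4 M. SETD2 itself stood at 16.7 and 21 CPM at 6 h, against 90.4 and 81.8 CPM at 0 h, and in untreated shCtrl cells at 131 and 129 CPM (counts as a share of the library, with library sizes scaled by TMM, the trimmed mean of M values), so both untreated shSETD2 libraries lay under both untreated shCtrl libraries. METTL14 stood at 14 and 18.6 CPM at 6 h, against 38 and 38.6 CPM at 0 h. Of the 10 hepatocyte-derived markers listed for HepG2, all 10 were counted in every library of the comparison, with summed levels of 178147 and 193028 CPM at 6 h against 105104 and 104125 CPM at 0 h. Of the markers of other cells, 2 of 6 for fibroblasts, 5 of 7 for blood and immune cells, 1 of 5 for HEK293T cells and 3 of 7 for endothelial and stellate cells had enough counts to be tested. LYZ (2292 and 2611 CPM against 1369.9 and 1376 CPM) and RELN (2157 and 2214 CPM against 1369 and 1369 CPM) made up nearly all of the blood and the endothelial and stellate sums, while VWF, CDH5, CD14 and INA each stayed under 5 CPM. Summed levels were 2299 and 2615 CPM at 6 h against 1372 and 1379 CPM at 0 h for blood, 2159 and 2216 against 1369.5 and 1369.9 CPM for endothelial and stellate cells, and 40.5 and 31.4 against 19.2 and 18.4 CPM for fibroblasts. The tested HEK293T marker stayed under 1.1 CPM. In bulk RNA, fewer cells of a type and less RNA per cell cannot be told apart.

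The 2 libraries at 6 h differed from each other more than any other replicate pair of the series. Their counts had a chi-square per degree of freedom of 19.5, where the other 11 pairs lay between 1.37 and 5.63. The difference followed the GC content of the transcript: across 12607 genes matched to a coding transcript, Spearman's rho between the log2 ratio of replicate 1 to replicate 2 and GC content was -0.04 at 0 h, 0.58 at 1 h, 0.31 at 3 h and 0.72 at 6 h, as a description of these libraries. APOE had 1209 CPM in replicate 1 and 820.3 CPM in replicate 2 at 6 h, against 430.4 and 435 CPM at 0 h. APOB went the other way, with 65429 CPM in replicate 1 and 75855 CPM in replicate 2. Counts of calls, list medians and named genes were therefore also taken without each of the 6 h libraries and with a GC trend removed, and values are given where these change a result; beyond that, its part in the results was not tested.

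After 6 h, 10287 of 14887 genes tested (69.1%) differed from 0 h, 4995 higher (33.6%) and 5292 lower (35.5%), in edgeR's quasi-likelihood test with Benjamini-Hochberg adjustment at 0.05. The falls were deeper than the rises: 3058 genes (20.5%) fell by more than 1 on the log2 scale and 840 (5.64%) rose by more than 1; 335 fell by more than 3, while 41 rose by more than 2. Because each library is scaled to its own total, a gene can be called higher when it fell less than the rest, and the median change over all genes was -0.004. Scaling by library size alone put that median at -0.29 and the split at 3241 higher and 6788 lower, and limma on log2(RPKM + 1) gave 3187 higher and 6800 lower; directions below are relative to the TMM scale. Without replicate 1 of 6 h 9489 genes were called, and without replicate 2 10077. In 11968 genes (80.4%) the 6 h libraries and the 0 h libraries did not overlap.

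**Figure D1:**
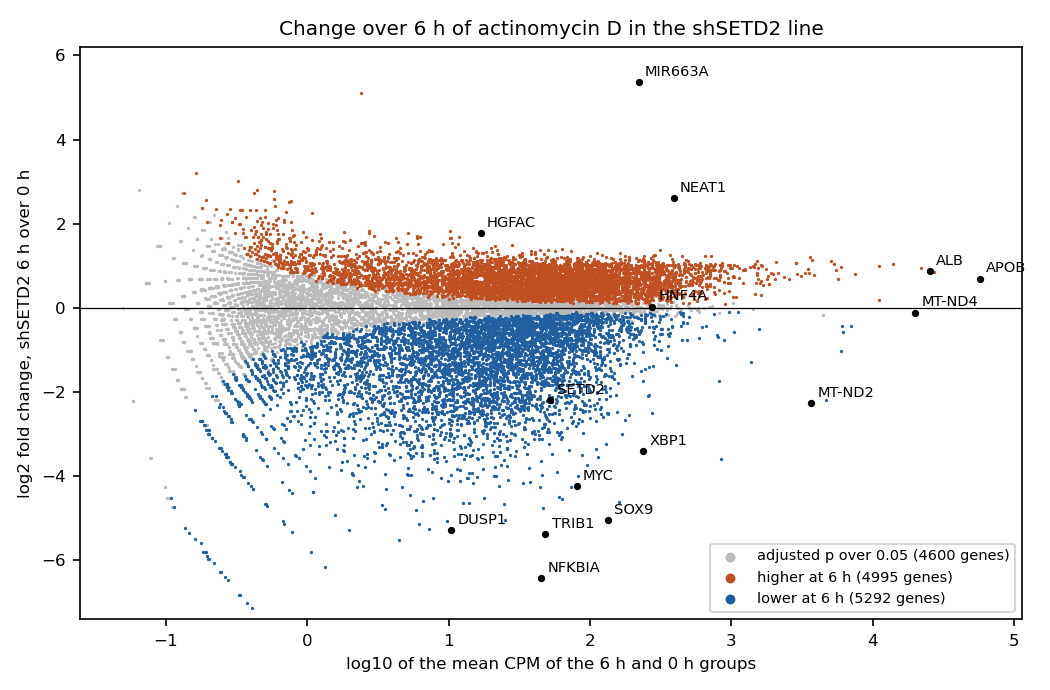
Log2 fold change of the 14887 tested genes in the shSETD2 line, 6 h over 0 h (vertical axis), against the log10 of the mean CPM of a gene in the 2 groups (horizontal axis). Colours mark genes higher (4995), lower (5292) or with an adjusted p over 0.05 (4600). The vertical axis is cut, and genes beyond it, such as a ribosomal protein gene at -8.98 that was not called, are not drawn. Falls reach below -6 at NFKBIA; 41 rises exceed 2, among them NEAT1 at 2.61 and the entry MIR663A at 5.37.

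Of the 12 deepest falls among genes of at least 10 CPM, 11 are given here; they were in feedback inhibitors, a stress kinase and regulators of transcription, among others. NFKBIA (ENSG00000100906; chromosome 14, 35870717 to 35873955, GRCh37), which encodes the inhibitor IkBa that holds NF-kB in the cytoplasm, had 1.03 and 1.04 CPM at 6 h, against 86.9 and 91.5 CPM at 0 h. Both 6 h libraries thus held about the same small remainder, far under either 0 h library (log2 change -6.42, SE 0.121, adjusted p = 2.43e-21). TRIB1, a pseudokinase gene that directs C/EBP proteins to degradation, had 1.72 and 2.87 CPM at 6 h, against 96.9 and 91.6 CPM at 0 h (log2 change -5.38, adjusted p = 1.96e-19). DUSP1, whose phosphatase switches off MAP kinases, stood at 0.631 and 0.391 CPM at 6 h, against 20.9 and 19.7 CPM at 0 h. SOX9, a transcription factor of progenitor and biliary cells, was the most counted of the 11 before the drug, with 7.57 and 8.15 CPM at 6 h, against 259 and 260.3 CPM at 0 h (log2 change -5.05, SE 0.0755, adjusted p = 4.03e-23). These genes were picked among those whose groups do not overlap, so that their separation is no result.

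DDIT4, an inhibitor of mTORC1 induced by stress, had 1.61 and 1.30 CPM at 6 h, against 48.3 and 48.5 CPM at 0 h (log2 change -5.04). SGK1, a kinase induced by glucocorticoids and serum, had 3.38 and 3.26 CPM at 6 h, against 91.4 and 88.4 CPM at 0 h (-4.76), and BAMBI, a decoy receptor for TGF-beta ligands, had 0.573 and 0.522 CPM at 6 h, against 18.7 and 18.7 CPM at 0 h (-5.08). The others given here were C10orf10 (-5.26), ZNF627 (-4.80), PNRC1 (-4.67) and CITED2 (-4.65), whose protein competes with HIF-1 for a coactivator. DUSP1 had a log2 change of -5.28. All 11 of these genes stayed lower and past the threshold in each of 16 alternative settings. C10orf10, DDIT4, SOX9 and ZNF627 overlap another tested gene in the files, and since no source used here states whether the counting was stranded, those counts are uncertain; the same holds for 80 of the 288 genes whose 6 h change was followed through the alternatives.

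Immediate early and feedback genes of signalling fell nearly as whole lists. Of 23 AP-1 and immediate early genes tested, 0 were higher, 20 lower and 3 not called (median log2 change -2.27); the lower share of 87% stands against 35.5% of all genes, and the median against -0.004. JUN, a subunit of AP-1, had 4.59 and 2.67 CPM at 6 h, against 44.2 and 47.1 CPM at 0 h. EGR1, a zinc finger factor induced within minutes of stimulation, had 2.75 and 2.02 CPM at 6 h, against 23.5 and 24.2 CPM at 0 h. KLF10 (log2 change -3.93), BHLHE40 (-3.47) and IER3 (-3.31) fell by like amounts. In all 5 the groups did not overlap, as in 80.4% of all genes tested.

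Of the 14 negative regulators of ERK signalling, 0 were higher, 13 lower and 1 not called (median log2 change -2.41). DUSP6, the cytoplasmic ERK phosphatase, had 3.55 and 4.56 CPM at 6 h, against 68.9 and 72.4 CPM at 0 h (log2 change -4.13, SE 0.0993, adjusted p = 1.00e-19). SPRY2 had 1.09 and 0.978 CPM at 6 h, against 10.1 and 10.3 CPM at 0 h and SPRY1 4.82 and 6.26 CPM at 6 h, against 43.3 and 47.4 CPM at 0 h; Sprouty proteins dampen receptor tyrosine kinase signalling upstream of ERK. DUSP7 fell the least of the called members (log2 change -0.98), and SPRED3, with under 0.2 CPM in the 4 libraries, was not called. All 11 SOCS and PIM genes tested were lower (median log2 change -2.23). PIM3, a survival kinase gene, had 3.50 and 2.15 CPM at 6 h, against 24 and 26.6 CPM at 0 h, and SOCS1, an inhibitor of JAK kinases, 1.26 and 0.652 CPM at 6 h, against 6.98 and 6.43 CPM at 0 h, with some of its counts uncertain because it overlaps RMI2. SOCS6 was at 10.5 and 12.9 CPM at 6 h, against 59.1 and 61.5 CPM at 0 h. SOCS2 was the smallest of these falls (log2 change -0.81, adjusted p = 0.0120), and its call was lost without replicate 1 of 6 h (adjusted p = 0.0616) and without replicate 1 of 0 h (adjusted p = 0.168).

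Genes of NF-kB signalling mostly fell. Of 14 tested, 2 were higher, 12 lower and 0 not called (median log2 change -1.001). The inhibitors and feedback genes NFKBIA (-6.42), NFKBIE (-2.46) and TNFAIP3 (-1.88), the last encoding the ubiquitin-editing enzyme A20, all fell. Among the subunits RELA (-0.72) and NFKB1 (-0.51) had smaller values, and REL had 2.75 and 2.74 CPM at 6 h, against 15.8 and 15.9 CPM at 0 h (log2 change -2.53). NFKBIB, a further inhibitor, was higher at 20.01 and 17.5 CPM at 6 h, against 11.4 and 10.3 CPM at 0 h, and so was TNIP1 (0.40), a partner of A20, which was not called with library size alone (0.11); NFKBIB overlaps SIRT2. Differences between members were not tested. In the MYC and MAX network, 3 were higher, 7 lower and 2 not called (median log2 change -0.89) of 12. MYC itself, the proto-oncogene factor, had 8.14 and 8.02 CPM at 6 h, against 153 and 154 CPM at 0 h (log2 change -4.25, SE 0.0861, adjusted p = 7.55e-21). Its partner MAX stood at 17.1 and 18.8 CPM at 6 h, against 34 and 34.8 CPM at 0 h and the antagonist MXD1 at 12.8 and 12.9 CPM at 6 h, against 50.7 and 51.3 CPM at 0 h. MLXIPL, the glucose-responsive factor ChREBP, moved the other way, with 179 and 141 CPM at 6 h, against 64.8 and 65.9 CPM at 0 h (log2 change 1.29, adjusted p = 8.90e-12).

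Among 23 feedback and target genes of TGF-beta, Wnt and Notch, 3 were higher, 18 lower and 2 not called (median log2 change -1.55). ID2 and ID3, inhibitors of basic helix-loop-helix factors, had log2 changes of -3.97 and -3.83. HES1, the Notch target repressor, had 1.66 and 1.30 CPM at 6 h, against 22.1 and 20.7 CPM at 0 h. NOTUM, a secreted enzyme that inactivates Wnt proteins, was higher instead, with 458 and 322 CPM at 6 h, against 166 and 166 CPM at 0 h (log2 change 1.23, adjusted p = 9.01e-09). Of 21 YAP-TEAD genes, 2 were higher, 16 lower and 3 not called (median log2 change -1.01). CTGF, a matrix protein gene used as a readout of YAP, had 56.4 and 54.1 CPM at 6 h, against 324 and 320.2 CPM at 0 h, and ANKRD1 had 15.3 and 15.4 CPM at 6 h, against 88.1 and 88 CPM at 0 h. AMOTL2 (-3.28), which binds YAP, fell further, and TEAD2 (0.58), one of the DNA-binding partners, was higher.

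The genes that themselves control AU-rich messengers and poly(A) tails were among the deepest falls as a group. Of 12 tested, 3 were higher, 8 lower and 1 not called (median log2 change -2.97), with quartiles of -3.54 and -0.07. The 3 ZFP36 genes, whose proteins bind AU-rich elements and recruit the deadenylase, all fell: ZFP36L2 had 12.6 and 14 CPM at 6 h, against 174 and 178 CPM at 0 h, ZFP36L1 had 11.7 and 11.9 CPM at 6 h, against 93.3 and 88.7 CPM at 0 h, and ZFP36, the least counted, had 0.516 and 0.717 CPM at 6 h, against 7.39 and 7.67 CPM at 0 h. BTG1 (log2 change -4.51), BTG2 (-3.52), TOB1 (-3.47) and TOB2 (-3.001), which bind the CCR4-NOT deadenylase, fell as well. The 5 other members behaved differently: ELAVL1, a stabilising AU-rich binder, was lower by a small step, at 67.2 and 65.5 CPM at 6 h, against 77.6 and 82 CPM at 0 h, BTG3 was not called, and AUH (0.31), HNRNPD (0.39) and KHSRP (0.53) were higher. Scaling by library size alone took AUH (0.02) and HNRNPD (0.10) out of the calls. BTG3 (-0.19) was called lower in 6 alternatives, among them library size alone (-0.49, adjusted p = 7.53e-05) and without replicate 2 of 6 h (-0.35, adjusted p = 0.00424). The fall of ELAVL1 was lost with the GC trend removed (log2 change -0.09) and in a fit of the 4 libraries alone (adjusted p = 0.0684).

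The following 27-base windows from GENCODE release 29 transcripts on GRCh38 are shown because each comes from a gene whose fall is described here; each is written as DNA on the strand of the gene, with the 9-mer TTATTTATT, a textbook core of AU-rich elements, in capitals.
DUSP1: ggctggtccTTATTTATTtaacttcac
SOX9: ttgctaaaaTTATTTATTttgtaagga
ZFP36L2: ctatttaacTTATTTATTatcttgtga
ZFP36L1: actgttggaTTATTTATTttagaaatt
PPM1D: gagtgtattTTATTTATTtattatttt
PLK2: ataaactttTTATTTATTacagcccaa
DDIT3: attgtacatTTATTTATTactgtccct
ANKRD1: gtgaaactcTTATTTATTtttatgtat
TNFAIP3: taattcactTTATTTATTttattacaa
PIM1: gttatgtatTTATTTATTtatttattt
The windows lie at DUSP1 chr5:172768644-172768670 (minus strand), SOX9 chr17:72125499-72125525 (plus strand), ZFP36L2 chr2:43223449-43223475 (minus strand), ZFP36L1 chr14:68788078-68788104 (minus strand), PPM1D chr17:60664781-60664807 (plus strand), PLK2 chr5:58454067-58454093 (minus strand), DDIT3 chr12:57516617-57516643 (minus strand), ANKRD1 chr10:90912669-90912695 (minus strand), TNFAIP3 chr6:137882299-137882325 (plus strand) and PIM1 chr6:37174986-37175012 (plus strand). The 9-mer starts 101 bases after the stop codon in DUSP1 and 1121 bases after it in SOX9. DUSP1, PPM1D and ANKRD1 hold 2 copies each in the 3' UTR and PIM1 holds 3; the other 6 hold 1. The log2 changes of these 10 genes ran between -5.28 and -1.88.

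In the first 500 bases of the 3' UTR the 9-mer went with lower values, but it was rare there, among the falls too. Only the strand of the messenger was searched, and the first 500 bases of the 3' UTR were used for the 8824 genes whose 3' UTR is at least that long, so that windows had equal length. Sites further on, such as that of SOX9, and sites in shorter 3' UTRs, such as that of DDIT3, are not counted in these windows. TTATTTATT was in 2.70% of all 8824 windows. It was in 3.49% of the 2147 windows of genes that fell by more than 1, with 3.56% for falls of more than 3. For falls of at most 1 the share was 3.45%, and for genes not called 2.91%. Among rises it was 1.56% up to 1, and 0.77%, or 2 windows, of the 260 over 1. The 238 carriers of the 9-mer had a median log2 change of -0.51, against -0.12 for the 8586 windows without it. Within the transcripts over the median GC content the medians were -0.43 with it and 0.08 without, and within those under it -0.56 and -0.30. Over whole 3' UTRs, 11575 genes had 0 copies, 799 had 1, 157 had 2 and 76 had 3 or more. Of these classes, 19.9%, 32.8%, 36.9% and 34.2% fell by more than 1. Their 3' UTRs differed in length, with medians of 943 bases at 0 copies and 2724 at 1. The 8-mer TGTANATA, the binding motif of Pumilio proteins, was in 9.77% of all windows, with medians of -0.50 with it and -0.08 without; it was in 13.6% of windows of genes that fell by more than 1 and in 2.69% of those that rose by more than 1. GGACT, a 5-mer that fits the m6A consensus, gave medians of -0.11 with it and -0.13 without. It was in 39.2% of all windows and 39.2% of those of genes that fell by more than 1. The share was 46.7% for falls of more than 3 and 48.5% for rises of more than 1. TGTANATA and TTATTTATT are both AT-rich, and a match describes letters, not a bound site.

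Zinc finger and liver transcription factor genes fell together. Of 432 ZNF-named genes tested, 16 were higher, 362 lower and 54 not called (median log2 change -1.47); 298 fell by more than 1, or 69% against 20.5% of all genes. ZNF14 had 0.287 and 0.196 CPM at 6 h, against 6.91 and 6.68 CPM at 0 h and ZNF574 0.344 and 0.587 CPM at 6 h, against 9.73 and 10.4 CPM at 0 h. ZNF669 (-4.31) and ZNF703 (-4.12) were among the largest falls of the list, and ZNF385C (1.19) and ZNF358 (1.07) were higher. Many of these genes are related in sequence, so reads may have been split among them.

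Of 39 hepatocyte transcription factors and nuclear receptors, 2 were higher, 26 lower and 11 not called (median log2 change -1.38). FOXA1, a pioneer factor of liver genes, had 4.24 and 6.39 CPM at 6 h, against 120.3 and 124 CPM at 0 h (log2 change -4.54, SE 0.0976, adjusted p = 1.84e-20). FOXA3 (-3.38) and GATA6 (-3.52) also fell, and CEBPB had 4.07 and 2.80 CPM at 6 h, against 38.3 and 37 CPM at 0 h. NR0B2, the corepressor SHP induced by bile acid signalling, had 1.55 and 1.04 CPM at 6 h, against 22 and 23.6 CPM at 0 h. HNF4A, the nuclear receptor at the centre of the hepatocyte programme, was not called. It had 291 and 265 CPM at 6 h, against 272 and 273 CPM at 0 h. With scaling by library size alone it was called lower (-0.26), and with RLE and with DESeq2 it was called higher (0.12 in both). NR1H3, the oxysterol receptor LXRa, was higher (log2 change 0.59, and 0.37 without replicate 1 of 6 h), but was not called with library size alone (adjusted p = 0.0505). FOXA1, NR0B2, HNF4A and NR1H3 overlap other tested genes. Of 21 circadian clock genes, 2 were higher, 15 lower and 4 not called (median log2 change -1.13). NFIL3 had 4.70 and 5.15 CPM at 6 h, against 69.4 and 68.7 CPM at 0 h, and NR1D1, which encodes the repressor REV-ERBa and overlaps THRA, had 1.15 and 1.17 CPM at 6 h, against 11.7 and 11.5 CPM at 0 h. RORA (-2.42), a nuclear receptor that drives clock gene transcription, fell too, while NPAS2 (0.35) was higher, though not called with library size alone (0.06).

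Of 27 p53 target genes, 3 were higher, 21 lower and 3 not called (median log2 change -1.22). PPM1D, a phosphatase that turns the p53 response down, had 4.41 and 4.43 CPM at 6 h, against 50.7 and 49.3 CPM at 0 h, and PLK2 had 2.01 and 1.83 CPM at 6 h, against 22.5 and 20.2 CPM at 0 h. BBC3, the pro-apoptotic PUMA, had 1.26 and 0.587 CPM at 6 h, against 10.4 and 9.07 CPM at 0 h, and SESN2, a sestrin that restrains mTORC1, 3.84 and 4.04 CPM at 6 h, against 31.1 and 31.3 CPM at 0 h. BAX (0.43) and FDXR (0.83), an enzyme of mitochondrial electron transfer, were higher; BAX was at 0.26 without replicate 1 of 6 h and was not called with library size alone. Among 16 BCL2 family and apoptosis inhibitor genes, 6 were higher, 10 lower and 0 not called (median log2 change -0.68). Shares were 37.5% higher and 62.5% lower, against 33.6% and 35.5% of all genes. MCL1, the short-lived anti-apoptotic member, had 34.4 and 41 CPM at 6 h, against 299 and 305 CPM at 0 h (log2 change -3.01, SE 0.0636, adjusted p = 1.46e-20). BCL2L1, which encodes BCL-xL, stood at 274 and 235 CPM at 6 h, against 388 and 391 CPM at 0 h. Both are survival genes, and their log2 changes were -3.01 and -0.61; the difference between them was not tested. BMF (-2.88) and BCL2L11 (-2.22), pro-apoptotic BH3-only genes, fell, XIAP (-0.76) fell less, and BIRC5, survivin, was higher (0.55).

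Genes for the machinery of RNA methylation, histone methylation and RNA decay gave different counts by list. Of 21 m6A writers, erasers and readers, 4 were higher, 15 lower and 2 not called (median log2 change -1.03). YTHDF2, the reader that brings m6A messengers to the deadenylase, had 8.37 and 9.59 CPM at 6 h, against 67.6 and 70.02 CPM at 0 h (log2 change -2.94, SE 0.0854, adjusted p = 2.29e-18). YTHDF1, a reader tied to translation, had 29.9 and 32 CPM at 6 h, against 134 and 134 CPM at 0 h. The writer-complex genes CBLL1 (-2.16), KIAA1429 (-1.85) and RBM15 (-1.84) fell, as did METTL14 (-1.24), and HNRNPC (0.58) and HNRNPA2B1 (0.72) were higher. Of 26 H3K36 genes, 9 were higher, 15 lower and 2 not called (median log2 change -0.63). The higher share of 34.6% stood near the 33.6% of all genes, and the lower share was 57.7%, against 35.5%. SETD2, the target of the hairpin, was among the falls (log2 change -2.20, SE 0.0784, adjusted p = 8.43e-17). BRPF1 (-2.77), MSH6 (-2.45), a mismatch repair protein that reads trimethylated H3K36, and IWS1 (-2.22) fell as well, and SMYD2 (0.59) was higher.

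The 55 deadenylation, decapping, nonsense-mediated decay and exosome genes stood near the median of all genes (median log2 change -0.13), with 19 higher, 26 lower and 10 not called. That is 34.5% higher and 47.3% lower, against 33.6% and 35.5% of all genes. SMG8, a regulator of the SMG1 kinase of nonsense-mediated decay, had 2.75 and 2.61 CPM at 6 h, against 29.9 and 33.2 CPM at 0 h. CNOT4 (-2.88) and CNOT6L (-2.41), a catalytic deadenylase subunit, fell, and so did the decapping genes DCP1A (-2.24) and DCP1B (-2.25). PAN2 (1.17), of the other deadenylase, and LSM4 (1.16) were higher; PAN2 overlaps CNPY2.

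Stress gene lists were mixed. Of 23 heat shock chaperone genes, 9 were higher, 12 lower and 2 not called (median log2 change -0.32), and the sign of that median turned with the GC trend removed (0.06). Their shares were 39.1% higher and 52.2% lower, against 33.6% and 35.5% of all genes. DNAJB1, an inducible HSP40, had 11.1 and 8.15 CPM at 6 h, against 154 and 155 CPM at 0 h, and HSPA1B, an inducible HSP70, 2.12 and 2.41 CPM at 6 h, against 42.4 and 43.5 CPM at 0 h; HSPA1A and HSPA1B are near-identical copies, so reads may have been split between them. TRAP1, the mitochondrial HSP90, had 266 and 227 CPM at 6 h, against 121 and 126 CPM at 0 h. Of 27 genes of the endoplasmic reticulum chaperones and the unfolded protein response, 13 were higher, 9 lower and 5 not called (median log2 change 0.26), and with library size alone the median was -0.03. Their shares were 48.1% higher and 33.3% lower, the latter near that of all genes. XBP1, the factor spliced by IRE1, had 39.7 and 42.7 CPM at 6 h, against 429 and 440.0 CPM at 0 h (log2 change -3.40, SE 0.0480, adjusted p = 1.68e-23). DDIT3, encoding CHOP, had 1.32 and 1.04 CPM at 6 h, against 13 and 14.1 CPM at 0 h, and PPP1R15A, the subunit that reverses eIF2a phosphorylation, 4.01 and 2.93 CPM at 6 h, against 21.9 and 21.3 CPM at 0 h. P4HB, protein disulfide isomerase, had 4226 and 3584 CPM at 6 h, against 1860.4 and 1875 CPM at 0 h, and CRELD2 rose too (1.05). For ATF4 targets and aminoacyl-tRNA synthetases the count was 17 higher and 9 lower of 30. TRIB3 (-2.05) and CEBPG (-1.75) were among the falls and the enzymes PHGDH (0.85) and LARS (0.79) among the rises.

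Liver secreted protein genes gained share of the RNA as groups. Of 37 secreted plasma protein genes, 33 were higher, 1 lower and 3 not called (median log2 change 0.89); the higher share of 89.2% stands against 33.6% of all genes. ALB, encoding albumin, had 31874 and 33692 CPM at 6 h, against 17984 and 17854 CPM at 0 h (log2 change 0.87, SE 0.0340, adjusted p = 3.82e-16). SERPINA1, the alpha-1 antitrypsin gene, had 19129.5 and 18418 CPM at 6 h, against 9202 and 8975 CPM at 0 h, and AHSG, encoding fetuin-A, 5637 and 4667 CPM at 6 h, against 2338 and 2355 CPM at 0 h. In all 3 the groups did not overlap, as in 80.4% of all genes tested. SERPINA3, alpha-1 antichymotrypsin, was the 1 member that fell, with 2.24 and 3.72 CPM at 6 h, against 25.5 and 24.4 CPM at 0 h (log2 change -3.09, adjusted p = 5.70e-14). ORM1 (1.06) and ORM2 (1.07) are close copies of each other.

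Of 18 apolipoprotein and lipoprotein assembly genes, 16 were higher, 1 lower and 1 not called (median log2 change 0.95). APOA1, of high-density lipoprotein, had 3259.6 and 2379.8 CPM at 6 h, against 1314 and 1341 CPM at 0 h, and APOE, with the difference between 6 h libraries given above, rose by 1.23 on the log2 scale. APOB, the scaffold of very-low-density lipoprotein, rose by 0.70 and APOM by 1.13. APOC2, at under 2.1 CPM, was not called. Among 34 coagulation and complement genes, 31 were higher, 0 lower and 3 not called (median log2 change 0.81). F2, prothrombin, had 669 and 581 CPM at 6 h, against 297 and 298 CPM at 0 h, and F10, factor X, 113 and 101 CPM at 6 h, against 51.3 and 50.8 CPM at 0 h. F12 had a log2 change of 1.30, with counts that overlap GRK6, and the near-identical C4A (1.18) and C4B (1.20) were both higher. Of 10 HepG2 markers 9 were higher and HNF4A was not called; TF (0.99), TTR (1.03), AFP (0.84), FGB (0.82) and GPC3 (0.97) were among the 9.

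Ribosomal protein, respiratory chain and matrix genes were mostly higher. Of 84 cytosolic ribosomal protein genes, 71 were higher, 6 lower and 7 not called (median log2 change 0.92). RPS2 had 341 and 271 CPM at 6 h, against 139 and 138 CPM at 0 h and RPL14 342 and 319.6 CPM at 6 h, against 155 and 148 CPM at 0 h, and RPS19 had 805 and 553 CPM at 6 h, against 327 and 303 CPM at 0 h, with the 6 h libraries on both sides of 600 CPM. The lower members included RPL36A (1.03 and 1.63 CPM against 6.37 and 6.26 CPM), RPS26 (-0.90), RPL21 (-0.47), RPL36AL (-0.25) and RPL9 (-0.26), and those of RPL36AL and RPL9 turned sign with the GC trend removed (0.0654 and 0.12). RPL9 also lost its call with RLE (adjusted p = 0.131), DESeq2 (0.179), the line's 8 libraries (0.0728), the 4 libraries (0.127), and without replicate 1 of 6 h (0.0852) or of 0 h (0.104). RPL21 lost its call with DESeq2 (adjusted p = 0.0558) and without replicate 1 of 6 h (0.0628), and RPL36AL with the 4 libraries; many processed copies of these genes exist, so their counts are uncertain. Of 78 nuclear-encoded respiratory chain genes, 72 were higher, 1 lower and 5 not called (median log2 change 0.80). NDUFV1, a core subunit of complex I, had 124 and 97.9 CPM at 6 h, against 49.996 and 52.2 CPM at 0 h, and NDUFV3, the only member that fell, 29.6 and 26.5 CPM at 6 h, against 40.3 and 38.7 CPM at 0 h. Of 50 matrix, adhesion and cytoskeleton genes, 43 were higher, 2 lower and 5 not called (median log2 change 0.71). COL18A1, whose product holds endostatin, had 455 and 357 CPM at 6 h, against 166 and 174 CPM at 0 h, and LAMA5, a basement membrane laminin, 734 and 515 CPM at 6 h, against 264 and 265 CPM at 0 h. FLNA (0.99), TIMP1 (1.19) and ITGA3 (1.29) rose, while THBS1 (-0.51) and TUBB2A (-0.56) fell.

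Of 37 proteasome genes, 22 were higher, 6 lower and 9 not called (median log2 change 0.50). PSMB4 had 251 and 210.0 CPM at 6 h, against 126 and 126 CPM at 0 h and PSMB3 rose by 0.94, both of the catalytic ring, while the regulatory genes PSMD5 (-1.08) and PSMD12 (-0.95) fell. For 52 translation factors the count was 29 higher and 14 lower, with a median of 0.28 that moved to -0.01 with library size alone. EIF3I (1.13) and EIF3C (1.11) rose and EIF3A, of the same complex, fell, with 137 and 148 CPM at 6 h, against 375 and 382 CPM at 0 h. EIF1B (-1.58) and EIF1AD (-2.42) fell too.

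Metabolic lists were mixed. Of 14 gluconeogenesis and glucose sensing genes, 5 were higher, 7 lower and 2 not called (median log2 change -0.41). That is 35.7% higher and 50.0% lower, against 33.6% and 35.5% of all genes. PCK1, the cytosolic gluconeogenic enzyme, had 9.29 and 10.1 CPM at 6 h, against 26.1 and 26 CPM at 0 h, and PCK2, its mitochondrial counterpart, 335 and 265 CPM at 6 h, against 170.2 and 176 CPM at 0 h; G6PC fell by 0.73 and PC was higher (0.75). TXNIP, an arrestin-like protein that limits glucose uptake, had 14 and 14.6 CPM at 6 h, against 75.3 and 74.8 CPM at 0 h, and its relatives ARRDC3 (-1.72) and ARRDC4 (-0.95) fell as well. The values of PC and ARRDC4 rest partly on 1 library: without replicate 1 of 6 h they were 0.48 and -0.57. IRS1, the insulin receptor substrate, had 9.34 and 10.6 CPM at 6 h, against 52.6 and 52.3 CPM at 0 h, and PPARGC1A, the coactivator PGC-1a, 7.62 and 7.56 CPM at 6 h, against 27.9 and 30.001 CPM at 0 h. GCKR (1.11), the glucokinase regulator, and SLC37A4 (0.82), the glucose-6-phosphate transporter, were higher. IGFBP1 was not called, at 54.3 and 52.9 CPM at 6 h, against 56.8 and 56.7 CPM at 0 h; with library size alone it was called lower (-0.37).

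Of 28 cholesterol synthesis and SREBP control genes, 15 were higher, 8 lower and 5 not called (median log2 change 0.30). MYLIP, a ubiquitin ligase gene induced by oxysterol receptors, had 1.78 and 2.41 CPM at 6 h, against 6.95 and 7.17 CPM at 0 h (log2 change -1.76). The synthesis enzymes HSD17B7 (-1.57) and TM7SF2 (0.97) went opposite ways. Lipogenesis and fatty acid genes were higher in 25 and lower in 4 of 34. ACADVL, of mitochondrial fatty acid oxidation, had 248 and 213 CPM at 6 h, against 94.1 and 92.8 CPM at 0 h, FABP1 had 1179.9 and 1154 CPM at 6 h, against 654 and 626 CPM at 0 h, and PLIN2, the lipid droplet coat gene, fell, with 72.2 and 67.2 CPM at 6 h, against 218 and 218 CPM at 0 h. Cytochromes P450 and drug enzymes were higher in 32 and lower in 3 of 44, with CYP2W1 at 1.32. Glycolysis and hypoxia genes were higher in 23 and lower in 11 of 36: GAPDH had 2226 and 1913 CPM at 6 h, against 963 and 962 CPM at 0 h and PFKL, liver phosphofructokinase, rose by 1.19, while the oxygen sensor gene EGLN1 (-1.71) and the demethylase gene KDM3A (-1.18) fell.

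Cell cycle genes went both ways, with 21 higher and 28 lower of 56 (37.5% and 50.000%, against 33.6% and 35.5% of all genes). CDKN1B, the inhibitor p27, had 6.88 and 6.59 CPM at 6 h, against 57.4 and 60.7 CPM at 0 h. CDC25A, a phosphatase that activates cyclin-dependent kinases, had 13.9 and 10.2 CPM at 6 h, against 54.1 and 53.8 CPM at 0 h, and MCM10 7.62 and 7.83 CPM at 6 h, against 32.6 and 33 CPM at 0 h. TYMS (0.73), thymidylate synthase, and MYBL2 (0.87) were higher. Of 36 interferon-stimulated genes, 16 were higher (44.4%, against 33.6% of all genes) and 13 lower (36.1%, against 35.5%); IRF1, the factor, had 1.26 and 1.04 CPM at 6 h, against 8.34 and 8.04 CPM at 0 h, IFIT5 fell by 2.78 and BST2, tetherin, was higher, with 43.3 and 36.8 CPM at 6 h, against 17.2 and 17.4 CPM at 0 h.

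**Figure D2:**
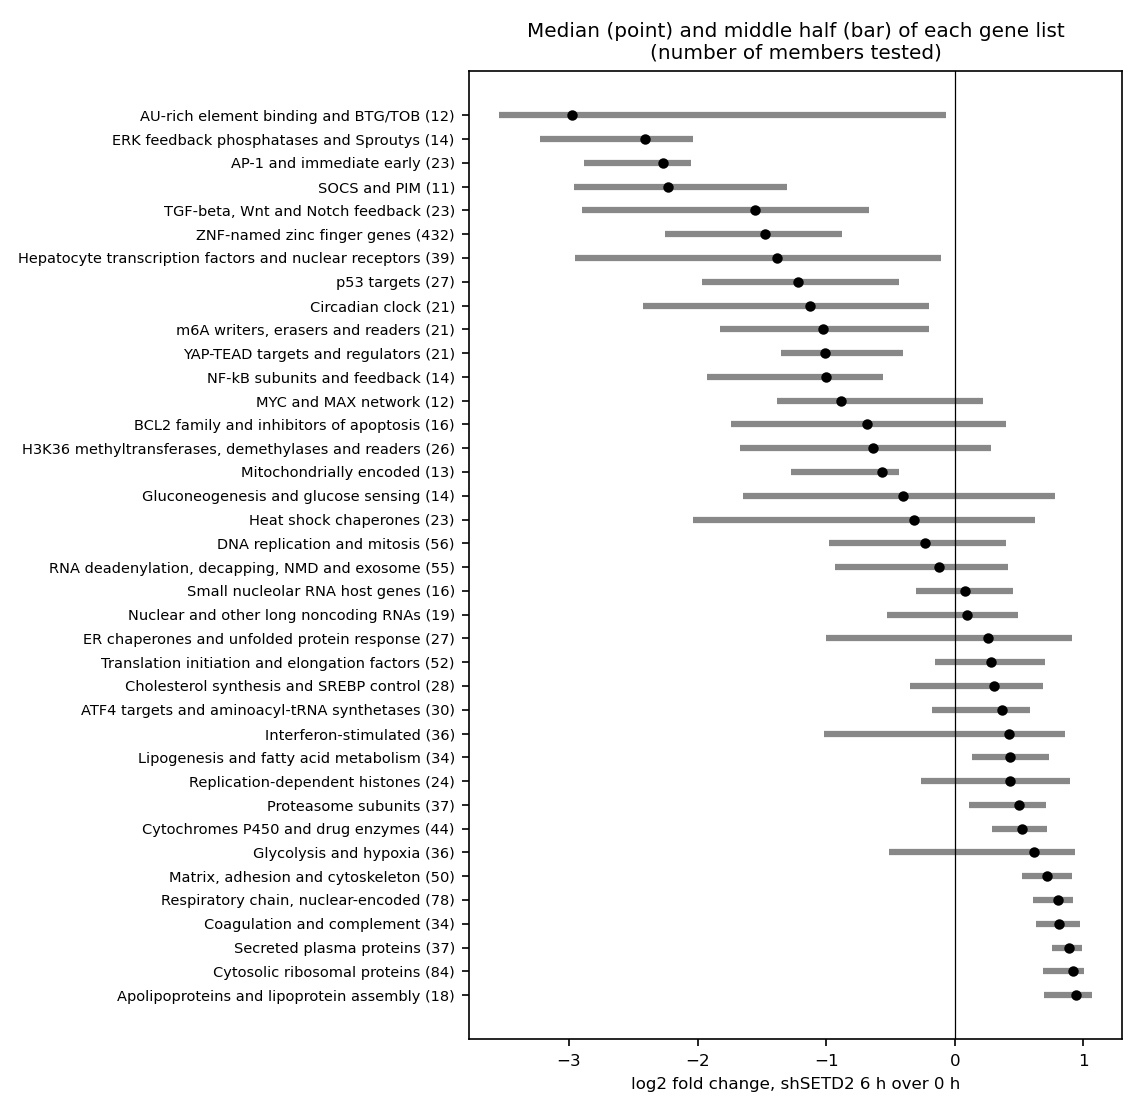
Median (point) and quartiles (bar) of the log2 fold change, 6 h over 0 h, of 38 gene lists in the shSETD2 line, with the number of members tested in brackets. Lists of feedback inhibitors and transcription factors lie left of 0, the AU-rich element binding and BTG/TOB list lies lowest at -2.97, and those of secreted, ribosomal and respiratory chain proteins lie right of it, up to 0.95.

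Transcripts of the mitochondrial genome, which mitochondrial RNA polymerase makes, fell late and unequally. Of 13, 1 were higher, 10 lower and 2 not called (median log2 change -0.57); their share of the counts was 4.87% and 5.41% in the 6 h libraries against 8.90% and 8.67% in the 0 h libraries. MT-ND2 had 1178 and 1359 CPM at 6 h, against 6164 and 6002 CPM at 0 h (log2 change -2.26, SE 0.0553, adjusted p = 1.32e-19), and MT-CYB, the complex III subunit, 1648 and 1714 CPM at 6 h, against 7801 and 7562 CPM at 0 h. MT-ND6, the messenger from the light strand, had 43.3 and 40.8 CPM at 6 h, against 184 and 192 CPM at 0 h. MT-CO1 was higher by 0.18 on the TMM scale and lower by 0.11 with library size alone. MT-ND4 (-0.11) and MT-ATP6 (-0.17) were not called, but both were called lower in 7 alternatives, among them library size alone and the replicate block; without replicate 2 of 6 h they were -0.24 (adjusted p = 7.68e-04) and -0.35 (1.30e-05). With the GC trend removed MT-ND4 was called higher (0.12). In the last step, between 3 and 6 h, 12 of the 13 were lower, against 4 in the first hour.

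Noncoding transcripts held the largest rise. The entry labelled MIR663A in the files (ENSG00000227195; chromosome 20, 26167556 to 26232162, GRCh37), an ID that GENCODE release 29 names MIR663AHG, had 494 and 369.5 CPM at 6 h, against 9.36 and 11.6 CPM at 0 h (log2 change 5.37, SE 0.132, adjusted p = 2.56e-17); it is a host transcript of 4401 exonic bases, and the miRNA itself was not measured. Its level was already up at 1 h, and the same entry had 409 and 376 CPM at 6 h against 14.9 and 14.6 CPM at 0 h in shCtrl cells. NEAT1 (ENSG00000245532; chromosome 11, 65190245 to 65213011, GRCh37), the scaffold RNA of nuclear paraspeckles, had 623 and 724 CPM at 6 h, against 111 and 109 CPM at 0 h (log2 change 2.61, SE 0.0672, adjusted p = 2.95e-19). MALAT1, of nuclear speckles, had 632 and 916 CPM at 6 h, against 497 and 584 CPM at 0 h, and its call was lost without replicate 2 of 6 h (log2 change 0.23, adjusted p = 0.102) and with library size alone (0.23, adjusted p = 0.114). LINC00657, known as NORAD, which binds Pumilio proteins, fell, with 86.3 and 115 CPM at 6 h, against 422 and 421 CPM at 0 h, as did KCNQ1OT1 (-1.24) and MIR22HG (-2.45).

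Of 16 small nucleolar RNA host genes 5 were higher and 5 lower, shares of 31.2% and 31.2% that stand near the 33.6% and 35.5% of all genes (median log2 change 0.08, and -0.21 with library size alone). SNHG12 (-2.55), SNHG3 (-1.63) and SNHG17 (-1.52) fell, each overlapping another tested gene, while SNHG5 had 198 and 199.8 CPM at 6 h, against 121 and 121 CPM at 0 h and DANCR rose by 0.77. GAS5, whose spliced transcript is a known target of nonsense-mediated decay, was at 68.2% of the 0 h level at 1 h, 71.9% at 3 h and 87.2% at 6 h. Its call as lower at 6 h was lost with RLE (adjusted p = 0.109), DESeq2 (0.136) and the 4 libraries alone (0.170). GAS5 also overlaps GAS5-AS1 and ZBTB37. Of 24 histone genes, 12 were higher, 3 lower and 9 not called (median log2 change 0.43); HIST1H1C, a linker histone gene, had 78.4 and 73.3 CPM at 6 h, against 34.2 and 36.1 CPM at 0 h. The counting does not tell polyadenylated histone messengers from those without a tail.

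Among genes of at least 10 CPM whose groups did not overlap, the largest rises apart from the noncoding entries were in 10 genes of 10 to 50 CPM at 6 h; larger rises among the 41 over 2 were in genes below that level. HGFAC, which encodes the liver-secreted activator of hepatocyte growth factor, had 30.3 and 21.5 CPM at 6 h, against 7.59 and 7.71 CPM at 0 h (log2 change 1.77, adjusted p = 2.64e-11). MICALL2 had 18.5 and 13.2 CPM at 6 h, against 4.07 and 5.03 CPM at 0 h and CHRD, the BMP antagonist chordin, 46.4 and 36 CPM at 6 h, against 15.8 and 13.6 CPM at 0 h, its counts shared with the overlapping EIF2B5. In each of these 3 genes replicate 1 of 6 h was above replicate 2; that both lay above the 0 h libraries was part of the choice. ATHL1, SLC22A18, EXOC3L4, C9orf16, KIFC2, ANO9 and PCSK1N had log2 changes between 1.48 and 1.68. All 12 of the largest rises stayed higher and past the threshold in every alternative setting that could be run for them, at sizes of 0.71 or more.

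The falls were spread over the 3 steps. In the first hour 28.8% of genes were called, 1883 higher (12.6%) and 2403 lower (16.1%) than at 0 h. Between 1 and 3 h 45.3% were called, 2957 higher (19.9%) and 3781 lower (25.4%), and between 3 and 6 h 39.0%, 2851 higher (19.2%) and 2958 lower (19.9%). With library size alone the splits were 1228 and 2746, 1629 and 4697, and 1277 and 4319. Calls in the first step depended on which libraries were fitted. With the 8 libraries of the line alone, the first step had 1958 calls, 380 higher and 1578 lower. Without replicate 1 or 2 of 0 h it had 2570 and 2766, and without replicate 1 of 1 h 2244. Genes that had fallen by more than 1 at 6 h stood at a median of 76.4% of their 0 h level at 1 h, 42.6% at 3 h and 29.3% at 6 h. Those that had fallen by more than 3 stood at 49.3%, 14% and 8.62%. The 840 genes that had risen by more than 1 stood at 127%, 165% and 219%.

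Single genes had different courses and end points. NFKBIA was at 10.8% of the 0 h level at 1 h, 2.51% at 3 h and 1.16% at 6 h. MYC was at 26.7% of the 0 h level at 1 h, 5.68% at 3 h and 5.27% at 6 h, so that most of its loss came before 3 h. XBP1 went on falling in every step, with 71.4% of the 0 h level at 1 h, 25.1% at 3 h and 9.48% at 6 h. MSH6 was still at 100.2% at 1 h and reached 18.3% by 6 h, and CDC25A was at 105% of the 0 h level at 1 h, 64.5% at 3 h and 22.3% at 6 h. SETD2 was at 75.1% of the 0 h level at 1 h, 36.9% at 3 h and 21.9% at 6 h. ALB climbed in every step, to 105% at 1 h, 125% at 3 h and 183% at 6 h. NEAT1 was at 402% at 1 h, so that the greater part of its rise came in the first hour.

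In 8 genes the level fell by more than 1 on the log2 scale in the first hour and was higher again at 6 h than at 3 h, out of 161 genes of at least 10 CPM at 0 h with such an early fall; over all genes tested 19.2% were higher in that step, and these 8 were singled out after their values were seen. They include feedback genes of the lists above: DUSP6 was at 70.7, 9.85, 2.97 and 4.06 CPM at 0, 1, 3 and 6 h, SPRY4 at 58.0, 18.3, 10.3 and 13.9, TNFAIP3 at 94.5, 27.7, 21.2 and 25.7, NFKBIZ at 32.7, 11.9, 11.4 and 14.8, and SOCS5 at 35.9, 17, 8.79 and 12.7. The other 3 are KLF6, FAM46A and ZBTB43. Log2 changes in the last step ran between 0.28 (TNFAIP3) and 0.57 (FAM46A). The step was positive in all 15 alternatives for each gene, library size alone included, and KLF6, FAM46A and SOCS5 were past the threshold in all 15, while DUSP6 was past it in 7.

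**Figure D3:**
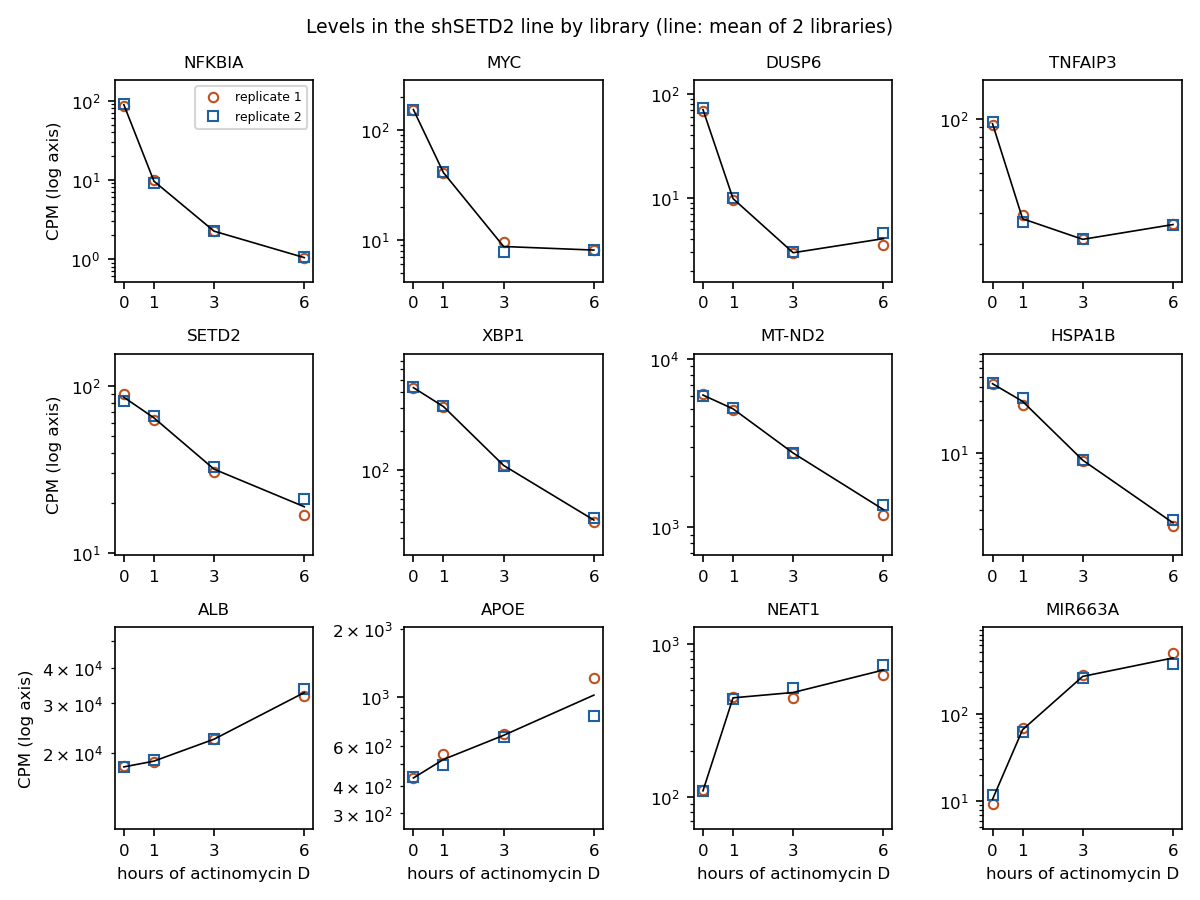
CPM (log axis, vertical) against hours of actinomycin D (0, 1, 3 and 6, horizontal) for 12 genes of the shSETD2 line; circles and squares are replicates 1 and 2, and the line joins their means. NFKBIA, MYC and DUSP6 drop steeply in the first hour, SETD2, XBP1, MT-ND2 and HSPA1B fall more evenly, and ALB, APOE, NEAT1 and the entry MIR663A climb, with the 2 libraries of APOE apart at 6 h.

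Structure of the transcript went with the size of the change. Of 14887 genes, 12607 (84.7%) were matched by gene ID to a coding transcript. Transcripts of 1 exon had a median log2 change of -0.95 (294 genes), those of 2 to 3 exons -0.73 (1267 genes) and those of 4 to 9 exons 0.09 (5038 genes). More exons brought no further step, with 0.12 for 10 to 19 and 0.09 for 20 or more. Genes of 1 exon fell by more than 1 in 45.9% of cases, against 21% of all matched genes. By length of the 3' UTR the median was 0.40 under 500 bases, 0.13, -0.04 and -0.28 in the classes starting at 500, 1000 and 2000 bases, and -0.43 at 4000 or more. The ranges between quartiles of neighbouring classes overlapped, and exon number, 3' UTR length and GC content are related to one another.

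GC content of the transcript also went with the change, and differently in the 2 libraries. Over 5 equal classes of GC content the median was -0.40 in the lowest class and 0.46 in the highest. In replicate 1 of 6 h alone, set against the mean of the 0 h libraries, these medians were -0.54 and 0.48, and in replicate 2 -0.21 and 0.18. The direction was thus shared, and the size was not. With a smooth GC trend removed from every library, an alternative added after the data were seen, 5367 genes were higher and 4499 lower among the 12607, against 5078 and 4466 when the same genes were fitted without that step.

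**Figure D4:**
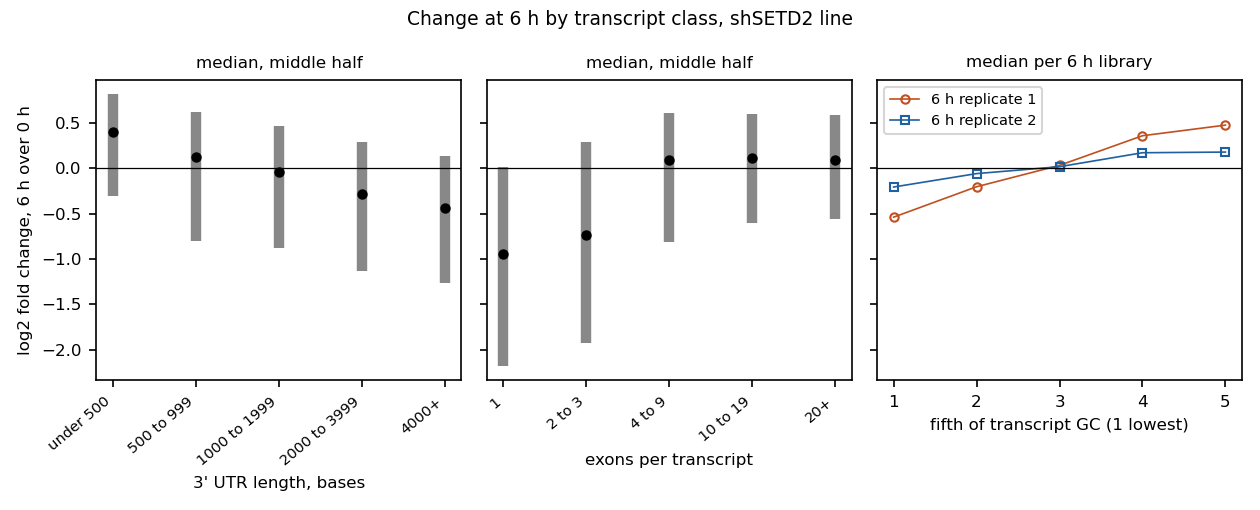
Log2 fold change at 6 h over 0 h in the shSETD2 line by 3' UTR length and by number of exons (median and quartiles of the genes in a class, left and centre), and the median log2 ratio to 0 h by class of transcript GC (5 equal classes) for each 6 h library (right). Medians fall with 3' UTR length, are lowest at 1 exon, and climb with GC more steeply in replicate 1 than in replicate 2.

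Half-lives per gene in the authors' deposited table come from these same libraries and are no independent measure of the changes. The authors' deposited table lists 7772 genes. Its column headed SETD2A_hour, whose A is not explained, was taken as the shSETD2 line and has a median half-life of 4.13 h. Of the 840 genes that rose by more than 1 here, 0 are in the authors' deposited table, and of the 4995 that were higher 569 are. Among its entries, the authors' deposited table gives 0.911 h for NFKBIA, 1.04 h for SOX9 and 1.25 h for MYC. For slower courses the authors' deposited table gives 1.53 h for MCL1, 1.98 h for SETD2 and 2.98 h for METTL14. ALB, APOB and NEAT1 are not among its entries used here.

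The 6 h change of the shSETD2 line was set against that of shCtrl and of shMETTL14, gene by gene. Against shCtrl 833 genes (5.60%) differed, 186 (1.25%) with a higher and 647 (4.35%) with a lower change in shSETD2. Against shMETTL14 1068 (7.17%) differed, 314 higher (2.11%) and 754 lower (5.06%). These splits rest on the scaling and on single libraries: with the size factors of RLE they were 368 higher and 226 lower against shCtrl and 500 and 305 against shMETTL14. Library size alone gave 230 and 336, and 842 and 192. Without replicate 2 of shSETD2 6 h the calls were 3624 and 3022, and without replicate 1 they were 502 and 1296. Without replicate 1 of shCtrl 0 h the split against shCtrl was 444 higher and 72 lower, and without replicate 2 of it 409 and 62. Calls against shCtrl also fell to 345 without replicate 2 of shCtrl 6 h, and to 401 and 415 without replicate 1 and replicate 2 of shSETD2 0 h. Calls against shMETTL14 were 565 and 542 without those 2 libraries, 402 and 484 without replicate 1 and replicate 2 of shMETTL14 0 h, and 536 without replicate 2 of shMETTL14 6 h. With the GC trend removed, among the 12607 genes with a GC value, the splits were 1968 higher and 232 lower, and 958 and 1140. The same genes fitted without that step gave 923 higher and 157 lower against shCtrl, and 437 and 397 against shMETTL14. The difference from shCtrl also followed GC content, with medians of -0.29 in the lowest class and 0.14 in the highest. No direction for the transcriptome as a whole was drawn from these comparisons, and both use the same shSETD2 libraries.

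Single genes were named by the size of the difference among those with a mean of at least 10 CPM in a group compared; differences over 2 in genes below that level are not given. Of the named genes, 7 of the 11 given here against shCtrl and 10 of the 12 against shMETTL14 kept their sign and their call in every alternative. PIM1, a survival kinase gene, changed by -2.23 in shSETD2 and -0.97 in shCtrl (difference -1.26, SE 0.137, adjusted p = 5.06e-06). TARS, the threonyl-tRNA synthetase, changed by -1.52 in shSETD2 and -0.47 in shCtrl (difference -1.04, SE 0.0846, adjusted p = 7.51e-08), with 39.3 and 45.8 CPM at 6 h, against 123 and 120.3 CPM at 0 h in shSETD2. FILIP1L and CREBRF, a regulator of CREB3 signalling, also fell more in shSETD2 (differences -1.05 and -1.32). TP53INP2, an autophagy gene, was not called in shSETD2 (0.11) and fell in shCtrl (-1.26), a difference of 1.38 (SE 0.103, adjusted p = 1.99e-08). Within shSETD2 it was called lower with library size alone (-0.18) and higher with RLE (0.20). MUL1, a mitochondrial ubiquitin ligase gene, fell less in shSETD2 (difference 1.63), as did SNHG7 (1.24), which overlaps FAM69B. For ZNF92, RARA, C19orf80 and SOX18 the call was lost in at least 1 alternative. Several of these genes started from different untreated levels in shSETD2 and shCtrl. Means were 165 and 47.5 CPM for TP53INP2, 122 and 284 CPM for TARS, and 110 and 179 CPM for FILIP1L. C19orf80 had 13.9 and 1.48 CPM, and SOX18 5.80 and 10.4 CPM. Only the shCtrl 0 h mean of SOX18 met the level required for naming, and its 6 h means were 2.04 and 1.03 CPM. Levels were closer for MUL1 (30.2 and 25.3 CPM) and SNHG7 (42.7 and 34.8 CPM). Whether starting levels set the differences was not tested.

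Against shMETTL14, HSPA1A, HSPA1B and NR1D1 fell more in shSETD2, and CYR61, IER3 and EDN1 fell less. HSPA1A changed by -3.50 in shSETD2 and -1.52 in shMETTL14 (difference -1.98, SE 0.170, adjusted p = 1.22e-07) and HSPA1B by -4.25 in shSETD2 and -2.70 in shMETTL14, with the limit on these copies given above. NR1D1 changed by -3.32 in shSETD2 and -1.06 in shMETTL14 (difference -2.26, SE 0.220, adjusted p = 5.92e-07). PLAU, the urokinase gene, was lower in shSETD2 and higher in shMETTL14 (difference -1.43), at 4.45 CPM against 6.07 CPM in shSETD2 and 16.4 CPM against 8.23 CPM in shMETTL14 as means of 6 h and 0 h; its fall within shSETD2 lost the call without replicate 2 of 6 h (adjusted p = 0.115). MEGF9 (-1.24) and LINC00657 (-1.22) also fell more in shSETD2. CYR61, a YAP target, changed by -2.01 in shSETD2 and -4.23 in shMETTL14 (difference 2.22, SE 0.164, adjusted p = 1.20e-08), IER3 by -3.31 in shSETD2 and -5.08 in shMETTL14 and EDN1, endothelin 1, by -1.46 in shSETD2 and -3.23 in shMETTL14. CSRP2BP differed by 1.67, and for SPRY2 and SERTAD3 the call was lost in at least 1 alternative. Untreated means in shSETD2 and shMETTL14 were 5.68 and 16.6 CPM for EDN1, and its 6 h means were 2.06 and 1.76 CPM. Only the shMETTL14 0 h mean of EDN1 met the level required for naming. Untreated means were closer for CYR61 (30.3 and 36.8 CPM) and IER3 (61.9 and 98.2 CPM). Whether starting levels set these differences was not tested.

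**Figure D5:**
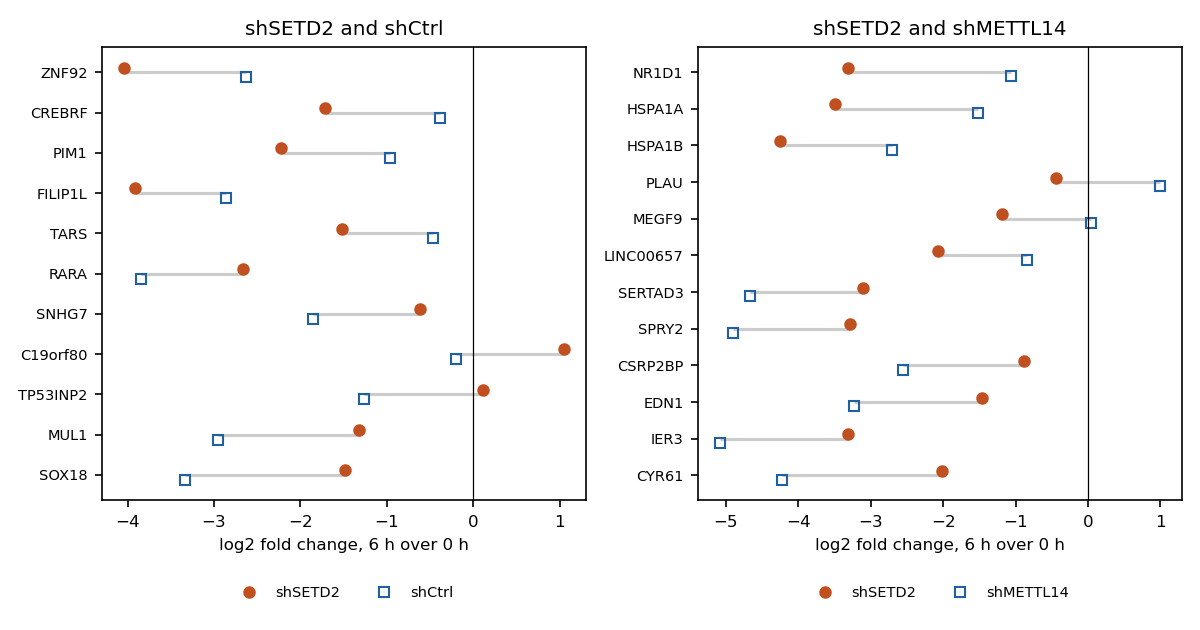
Log2 fold change, 6 h over 0 h (horizontal axis), of 11 (left) and 12 (right) named genes with large differences between shSETD2 (filled circles) and shCtrl (left panel, open squares) or shMETTL14 (right panel, open squares). The upper 5 genes on the left and the upper 6 on the right had the more negative change in shSETD2, and the lower 6 of each panel had the more negative change in the other line, among them CYR61 with a difference of 2.22.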

How the data were processed

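RNA-seq libraries of HepG2 cells were used as deposited: the build was GRCh37 and reads had passed through programs that include TopHat, cutadapt and HTSeq (0.6.1p1), per the submitters' processing notes. The order of tools, the annotation and the strand setting were not given in the sources used here. The deposited table holds counts and RPKM per gene for 34618 genes; the deposited RPKM equals count per exon length and library total within rounding. Half-lives are in hours, a value the authors deposited in a second table; per the series' text they compare 1, 3 and 6 h with untreated cells. Per the labels' protocol ERCC RNA was added before library construction; 0 rows of the count table are ERCC sequences, so values are relative to the rest of a library.

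Counts of all 24 libraries were fitted with edgeR 4.0.16 in R 4.3.3 (glmQLFit, robust; glmQLFTest; TMM; filterByExpr over 12 groups; 14887 genes kept; 12 residual degrees of freedom; biological coefficient of variation 5.04%), with Benjamini-Hochberg adjustment at 0.05 over all genes tested. CPM are on the TMM scale, and percentages of the 0 h level are ratios of group means. Library totals of 18.3 to 31.4 M counts put 3 counts at 0.0955 to 0.164 CPM. The scripts were tested on simulated counts. Alternatives were RLE and library-size scaling, filters, DESeq2 1.42.0, limma 3.58.1 on log2(RPKM + 1) and log2(RPKM + 0.1), smaller fits, a replicate block, each library left out, and, added after the data were seen, GC trend removal. Genes were named by a rule: SETD2, METTL14, MYC; the 12 largest rises and falls of at least 10 CPM whose groups do not overlap; any member of lists of up to 20; otherwise up to 5 per list of at least 5 CPM and 2 that moved the other way; and 6 per direction for differences between lines; a few items it selects are not reported here. A few genes outside it are named where a count singles them out, which was done after their values were seen. Members, lists and tests were chosen with earlier results of these data known. Transcript features come from GENCODE release 29 (GRCh38), matched by gene ID; its coordinates were not mixed with those of the files. In 29 symbols a gene name had become a day, and 186 entries share a symbol; these are identified by ID.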

Additional observations from a re-analysis of the deposited data

Results flagged for a closer look

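These 23 gene differences, each a 6 h change in shSETD2 minus the 6 h change in another line, passed the interaction test in edgeR and are listed because the change differed between lines. Against shCtrl the negative ones were ZNF92 (-1.40), CREBRF (-1.32), PIM1 (-1.26), FILIP1L (-1.05) and TARS (-1.04). The positive ones were RARA (1.18), SNHG7 (1.24), C19orf80 (1.25), TP53INP2 (1.38), MUL1 (1.63) and SOX18 (1.85). Against shMETTL14 the negative ones were NR1D1 (-2.26), HSPA1A (-1.98), HSPA1B (-1.54), PLAU (-1.43), MEGF9 (-1.24) and LINC00657 (-1.22). The positive ones were SERTAD3 (1.56), SPRY2 (1.62), CSRP2BP (1.67), EDN1 (1.77), IER3 (1.77) and CYR61 (2.22). Of the 23, 17 kept sign and call in every alternative; in SOX18 and RARA the call was lost without replicate 1 of shSETD2 6 h (adjusted p = 0.0806 and 0.0800).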

How the results depend on the processing

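The number of genes called between 6 h and 0 h stayed between 8918 and 10529 over 16 alternatives (9457 to 10077 with 1 library left out), against 10287; the replicate block gave 10529. For 1 h against 0 h leaving out 1 library gave 2244 to 3832 calls, and the 8 libraries of the line alone 1958, against 4286. Leaving out 1 library gave 5311 to 5835 calls for 3 h against 1 h and 4340 to 6364 for 6 h against 3 h. The counts of differences between lines moved most. Against shCtrl (833), no low-count filter gave 1338, limma on log2(RPKM + 0.1) 491, the replicate block 1665, GC trend removal 2200, and 1 library left out 345 to 3624. Against shMETTL14 (1068), the replicate block gave 1788, GC trend removal 2098, and 1 library left out 402 to 3022. Without the GC step, the same 12607 genes gave 1080 calls against shCtrl and 834 against shMETTL14. The cause was not tested.

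The labels do not say whether replicate numbers pair the samples. Deviations of same-numbered libraries at 6 h and 0 h correlated at 0.0002. Over all pairs of groups they correlated between -0.084 and 0.202, the highest between shSETD2 groups. Replicate 1 minus replicate 2 followed GC content the same way at 1, 3 and 6 h of shSETD2 (rho 0.58, 0.31 and 0.72), but not at 0 h (-0.04). The block result is therefore a hint only. Of 38 list medians, 0 changed sign under RLE or without either 6 h library, 4 did with library size alone and 5 with limma on log2(RPKM + 1); 1 of the 36 that had a value did with the GC trend removed. Signs of named genes near 0 turned with scaling: HNF4A to -0.26 with library size alone and -0.26 with limma on either RPKM scale, MT-CO1 to -0.11 in all 3, SNHG1 (0.10) to -0.19, -0.18 and -0.19, TP53INP2 to -0.18 in all 3, and MT-ND4 to 0.12, RPL9 (-0.26) to 0.12 and RPL36AL (-0.25) to 0.0654 with the GC trend removed. Of the 288 genes followed, 15 lost a call and 8 gained one in at least 1 alternative. Among those that gained one, HNF4A (0.12), SNHG1 (0.19) and TP53INP2 (0.20) were called higher with RLE and with DESeq2. Depth limits genes under about 1 CPM, where 3 counts are 0.145 and 0.164 CPM in the 6 h libraries.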
